A study of Gallus gallus with 24 samples.

Results

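The livers of fat line (FL) and lean line (LL) chickens were compared at 9 wk of age, the fifth of 6 ages in a time course of juvenile broilers. The 4 arrays titled with this age were taken out of the 24 arrays of the series, and no measured value was used in choosing them. Each was a two-colour cDNA array that held total RNA from the liver of 1 FL and 1 LL chicken of 9 wk, labelled with different dyes. Both genotypes were broiler lines selected in opposite directions on abdominal fat weight over 7 generations, grown under a standard broiler protocol and given no treatment that the labels name. Each genotype was therefore represented by 4 biological replicates. FL carried Alexa Fluor 555 in channel 1 on replicates 1 and 3 and Alexa Fluor 647 in channel 2 on replicates 2 and 4, with LL in the other channel. The sexes of the birds are not given in the sources used here.

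In birds the liver, rather than adipose tissue, is the main site of de novo fatty acid synthesis, and the triglyceride made there leaves in lipoproteins that carry apolipoprotein B and is stored in fat depots such as the abdominal pad. The same organ makes most plasma proteins, among them clotting factors, complement, and carriers of retinol and thyroid hormone, and disposes of amino acid nitrogen mainly as uric acid. Lines that diverge in abdominal fat are therefore often compared through hepatic genes of lipogenesis, lipid export and glucose supply.

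The deposited values were log ratios of the channels, taken as log2, in which 1 unit is a 2-fold difference. The log base and the direction of the ratio are not given in the sources used here, nor is whether arrays with exchanged dyes had been turned beforehand. Every comparison was therefore made in both ways. In the turned reading the sign was reversed on replicates 1 and 3, so that, for a deposited ratio of channel 2 over channel 1, positive values mean more RNA in FL than in LL. In the reading as deposited the signs were kept, and a mean away from 0 stands for a difference between the lines if the columns had been turned beforehand, with FL over LL or LL over FL unknown. If they had not been turned, it stands for an effect common to both dye orientations. Which of these holds cannot be told apart from the labels, and for this reason each value is given by sign alone, with no genotype named as the higher. Because ratios hold no level, hepatocyte markers could show only whether they differed between channels. ALB, which encodes the main plasma protein of hepatocytes, had deposited ratios of -0.46, -0.29, -0.57 and -0.36 on replicates 1, 2, 3 and 4, and its mean of -0.42 ± 0.18 (SE of the fit, n = 4 arrays) was not called (adjusted p = 0.136), though it was from the 4 arrays alone (adjusted p = 0.0132) and without 3 arrays of other ages, described with the correlations of the arrays (adjusted p = 0.0489). In whole liver, fewer cells of a type and less RNA per cell cannot be told apart.

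Values were present on 18942 to 18970 of the 19200 spots of the 9 wk arrays, with medians between -0.0008 and 0.0028 and an SD across spots of 0.322 to 0.350. Across spots, which are not independent, deposited columns of the same dye orientation correlated at 0.556 (replicates 1 and 3) and 0.559 (replicates 2 and 4), and those of opposite orientation between 0.418 and 0.608. The arrays of opposite orientation were thus as alike, before any sign was reversed, as those of the same orientation. The SD across features of the 9 wk mean was 0.252 as deposited, the widest of the 6 ages (0.120 to 0.236 at the others), and 0.107 after turning. All 4 arrays had the same sign for 4949 of 14855 features (33.3%) as deposited and for 1162 (7.82%) after turning. Across features the 9 wk mean as deposited correlated with the mean of the 20 arrays of the other ages at 0.776, and the turned mean at -0.123. By age, the deposited mean correlated at 0.215 with 1 wk, 0.480 with 5 wk and 0.613 with 7 wk. It correlated at 0.667 with 3 wk and 0.815 with 11 wk, and the turned correlations lay between -0.192 and 0.012. The deposited columns therefore shared a pattern with the other ages, to unequal degrees, that the turned values did not. An alternative left out 3 arrays of other ages. Of these, 7 wk replicate 1 and 11 wk replicate 4 were the most alike of all 276 pairs of arrays (0.798, against at most 0.705 for any other pair), and 1 wk replicate 4 correlated below 0 with 18 of the 23 other arrays.

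Turned by dye, the columns were first compared for genes that separated FL from LL livers at 9 wk. A single feature passed, ADAP1, which encodes an ArfGAP-domain protein that binds phosphoinositides. No gene of fatty acid synthesis, triglyceride assembly or lipoprotein export passed. Of the 14855 features, 1 (0.00673%) had an adjusted p under 0.05 with limma, and 483 (3.25%) had an unadjusted p under 0.05. The unadjusted count depended on the model. It was 713 with a dye term for each age, 820 without the 3 arrays of other ages and 449 with array weights, with 1, 1 and 0 features called. The median SE of a turned value was 0.08, and 447 features differed by 1.2-fold or more in either direction.

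The deposited ratio of ADAP1 was 0.49 on replicate 1, -0.65 on replicate 2, 0.43 on replicate 3 and -0.47 on replicate 4. It was thus positive on both arrays with FL in channel 1 and negative on both arrays with FL in channel 2, and the turned values were all negative, between -0.65 and -0.43. The fitted turned value was -0.51 ± 0.08 (SE, adjusted p = 0.0303), which is a 1.43-fold difference. Without replicate 1, 2, 3 or 4 the value was -0.51, -0.48, -0.53 and -0.54, with adjusted p of 0.137, 0.187, 0.106 and 0.184, so that the call depended on each of the arrays. It was also not called from the 4 arrays of 9 wk alone (adjusted p = 0.664) or with array weights (0.0612). At the other 5 ages the mean turned ratio of ADAP1 lay between -0.07 and 0.15, and the difference of 9 wk from their mean was -0.54 ± 0.09 (adjusted p = 0.0334), which was not called either without any 1 of the 9 wk arrays (adjusted p from 0.135 to 0.24, values of -0.56 to -0.50).

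The other genes with the smallest p are given as values, since none passed. FBXW2, the substrate-binding subunit of a ubiquitin ligase, was positive as deposited on replicates 1 and 3 (0.44 and 0.26) and negative on 2 and 4 (-0.29 and -0.67), and its turned value was -0.42 ± 0.08 (adjusted p = 0.244). ADAMTS3, a protease that cleaves procollagen, had a turned value of -0.39 ± 0.09 and the uncharacterised LOC423629 one of -0.70 ± 0.17 (adjusted p = 0.534 for both). All 4 turned values of LOC423629 were negative, from -1.40 on replicate 4 to -0.07 on replicate 3, so that its arrays differed more among themselves than those of ADAP1. C8G, a subunit of complement component 8, had 0.27 ± 0.07 (adjusted p = 0.623). RRAGA, a GTPase that signals amino acid supply to mTORC1, had 0.32 ± 0.08, RASSF3, a Ras-association domain protein, had 0.38 ± 0.10, and MMP23A, a membrane metalloproteinase, had -0.32 ± 0.08 (adjusted p = 0.815 for each). KATNIP, ZWILCH, PSMD6 and MBNL3 complete the list, with turned values of 0.36, 0.18, -0.40 and 0.22 and an adjusted p of 1.00. For RRAGA and PSMD6 replicate 4 went against the other arrays, with -0.08 and 0.11.

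**Figure D1:**
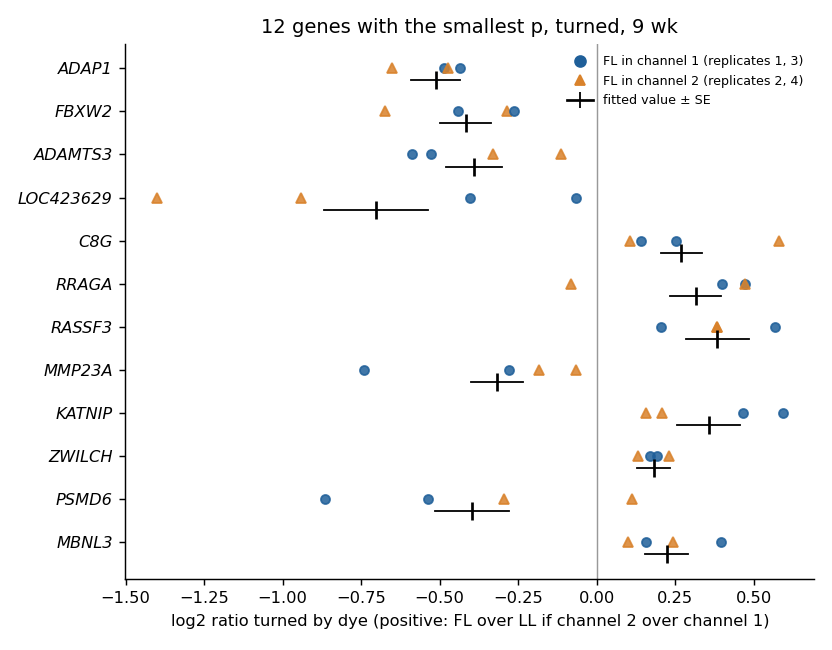
Turned log2 ratio (horizontal axis) of the 12 genes with the smallest p at 9 wk (rows). Circles are replicates 1 and 3, triangles replicates 2 and 4, and the black mark below them is the fitted value ± SE. ADAP1, the only one called, has 4 values close together between -0.65 and -0.43, whereas those of LOC423629 lie between -1.40 and -0.07.

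In the turned reading the lipid genes lay near 0 or varied widely between arrays. FASN, the fatty acid synthase, had 0.26 ± 0.25, ACACA, the acetyl-CoA carboxylase that supplies its malonyl-CoA, 0.04 ± 0.26, and ACLY, which makes cytosolic acetyl-CoA, 0.21 ± 0.13. ACLY was positive on all 4 arrays after turning, between 0.12 and 0.27, with an unadjusted p of 0.116. SCD, the desaturase that makes oleate, had 0.12 ± 0.10 and THRSP, a regulator of lipogenesis, 0.02 ± 0.16. The 2 probes of THRSP differed in sign after turning (0.41 and -0.36), as did those of FASN (0.59 and -0.07). GPAM, which starts glycerolipid synthesis, had the largest turned value of these, 0.64 ± 0.32, but its 4 values were 1.60, -1.06, 1.10 and 0.93, and the unadjusted p was 0.0555. GYS2, the glycogen synthase of liver, was negative on all 4 arrays, from -0.60 on replicate 4 to -0.02 on replicate 3, with -0.24 ± 0.08 and an unadjusted p of 0.00877. PCK1, the cytosolic enzyme that opens gluconeogenesis, had 0.22 ± 0.32, FABP1, the fatty acid binding protein of liver, 0.05 ± 0.39, APOB, the structural protein of very low density lipoprotein, -0.08 ± 0.38, and PPARG, a nuclear receptor of adipocyte differentiation, -0.02 ± 0.07. The adjusted p of each of these 11 genes was 1.00 with limma. Among the lists, 0 of 19 genes of fatty acid synthesis, 0 of 14 of triglyceride assembly and 0 of 16 of lipoproteins had an unadjusted p under 0.05. Over all features this share was 3.25%, at which lists of this size can hold 0 such genes.

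**Figure D2:**
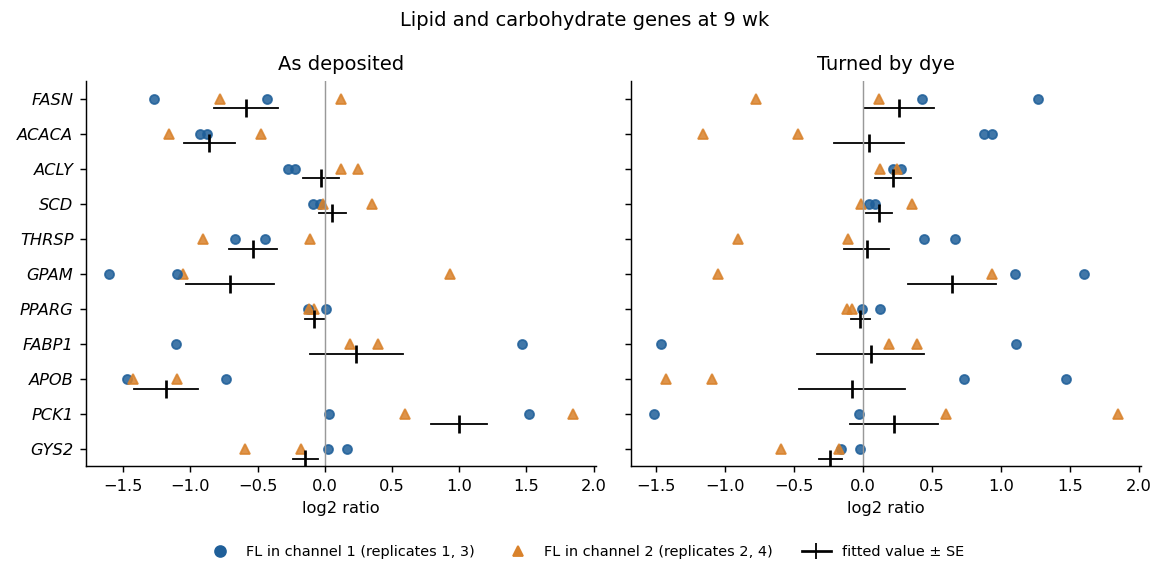
Log2 ratio (horizontal axis) of 11 genes of lipid and carbohydrate metabolism (rows) on the 4 arrays of 9 wk, as deposited on the left and turned by dye on the right. Circles have FL in channel 1, triangles have FL in channel 2, and black marks are fitted values ± SE. APOB and ACACA lie below 0 on all arrays as deposited and on both sides of 0 after turning, and FABP1 spans from -1.11 to 1.47 as deposited.

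Genes of plasma proteins and antigen presentation were not called after turning. ORM1, the acute phase glycoprotein orosomucoid, had deposited ratios of 2.15, -1.12, -0.15 and -1.35 and a turned value of -1.12 ± 0.36, the largest in size over all features (unadjusted p = 0.00528, adjusted p = 1.00). Replicate 1 lay far from the others, and replicate 3, of the same orientation, had the opposite sign after turning (0.15). FGA and FGB, which encode fibrinogen chains, had turned values of -0.61 (unadjusted p = 0.071) and -0.57 (0.153), and replicate 1 was likewise the highest array as deposited, at 0.72 and 1.10. On replicate 1 the value of FGA is the mean of 2 probes, since its lowest probe had no value there. B2M, the light chain of MHC class I, had -0.44 ± 0.20 (unadjusted p = 0.0454), with ratios of -0.27 and -0.13 where FL was in channel 1 and -0.99 and -1.15 where it was in channel 2. Of the macrophage and antigen presentation markers, 14 of 16 had a negative turned value, with a median of -0.09, beside 7485 of 14855 features and a median of -0.00. The medians of this list on replicates 1, 2, 3 and 4 were 0.04, -0.25, 0.13 and -0.34, so both arrays with FL in channel 1 went the other way. In the list of coagulation and fibrinolysis 17 of 21 genes were negative (median -0.09), with array medians of 0.09, -0.51, 0.21 and -0.52 that were divided in the same manner. Other lists leaned to positive values, with 14 of 19 genes of fatty acid synthesis and 14 of 18 of proliferating cells. Array medians on replicates 1, 2, 3 and 4 were 0.18, -0.11, 0.10 and 0.06 for fatty acid synthesis. For proliferating cells they were 0.03, 0.01, 0.05 and 0.08. CD74, CSF1R and MARCO, macrophage and antigen presentation markers, had turned values of -0.24, -0.13 and -0.25 with unadjusted p of 0.0707, 0.0809 and 0.19. None of these genes was called, and the part of other cell types in these values was not tested.

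The second comparison took the columns as deposited. A large set of genes then departed from 0 in both directions. The named genes with the largest negative ratios included enzymes of amino acid metabolism and sulfation and the plasma proteins CFI and APOB, and the genes with the largest positive ratios included MMP2, which degrades matrix, and PLS3 and FILIP1L, which act in the actin cytoskeleton and cell motility. With limma 2407 of 14855 features were called (16.2%), 1231 positive (8.29%) and 1176 negative (7.92%). The negative side held the larger values, with 80 called features at 2-fold or more, against 28 on the positive side. Of the called features 2157 (89.6%) had the same sign on all 4 arrays, beside 33.3% of all features. The call rests on the mean of these same arrays, which favours features with 1 shared sign. Genes with a symbol made up 1202 of the called features (18.8% of 6385). Without replicate 3 the count was 1586, and it was 1716 to 1892 without each other array of this age.

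Among the genes with the largest negative ratios, KIF1BP, a kinesin-binding protein, had -1.63, -1.05, -1.60 and -1.44 on replicates 1, 2, 3 and 4 and a mean of -1.43 ± 0.25 (adjusted p = 0.000394), which is a 2.69-fold difference. BHMT2, a methyltransferase that remakes methionine, had -1.80, -0.36, -1.65 and -1.78, and its mean was -1.40 ± 0.25 (adjusted p = 0.000481). Replicate 2 thus stood apart for BHMT2, whereas the arrays of KIF1BP lay closer together. SULT1C3 and SULT6B1L, cytosolic sulfotransferases, had means of -1.31 ± 0.17 and -1.19 ± 0.19. HPD, which acts early in tyrosine breakdown, was at -1.42 and -1.52 on replicates 1 and 3 and at -0.89 and -0.96 on replicates 2 and 4, with a mean of -1.20 ± 0.25. APOB had -0.73, -1.10, -1.47 and -1.43 and a mean of -1.18 ± 0.24 (adjusted p = 0.00144). The rule that chose these genes required 1 sign on all 4 arrays, and ADH6, called at -1.18 with 1 array above 0, was left out by it. CFI, the protease that inactivates C3b, had -1.25 ± 0.21, RPL31, a protein of the large ribosomal subunit, -1.20 ± 0.12, NUDT5, which hydrolyses ADP-ribose, -1.18 ± 0.21, and SLCO1A2, an organic anion transporter, -1.15 ± 0.21. SCN4B, a beta subunit of sodium channels, had -1.34 ± 0.12 and LOC421740 -1.17 ± 0.17. The turned values of these 12 genes lay between -0.08 and 0.33, and none was called after turning.

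Among the genes with the largest positive ratios, CTDSPL2, a protein phosphatase, had 0.96, 1.17, 1.62 and 1.67 and a mean of 1.35 ± 0.19 (adjusted p = 6.13e-05), which is a 2.56-fold difference. DNASE1L3, a secreted nuclease that degrades chromatin, had 0.74, 0.85, 1.00 and 1.87, with a mean of 1.12 ± 0.16. MMP2, a gelatinase, had 0.81, 1.20, 1.30 and 0.96, with a mean of 1.07 ± 0.14 (adjusted p = 2.78e-05). The arrays of both orientations overlapped for these genes, and replicate 4 was highest for DNASE1L3. OSBPL11, an oxysterol-binding protein relative, had 1.05 ± 0.12, MYL10, a myosin light chain, 1.12 ± 0.14, ING4, a chromatin reader, 1.08 ± 0.13, and SCARA5, a scavenger receptor for ferritin, 1.02 ± 0.19. FILIP1L, PLS3, PPP4R3B (a subunit of protein phosphatase 4), ZNF407 (a zinc finger protein) and TRAFD1 (a regulator of innate immune signalling) had means of 1.09, 1.05, 1.06, 1.02 and 1.00. For ZNF407, replicate 2 was at 1.89 and the other arrays between 0.60 and 0.80. The turned values of these 12 genes lay between -0.26 and 0.32.

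**Figure D3:**
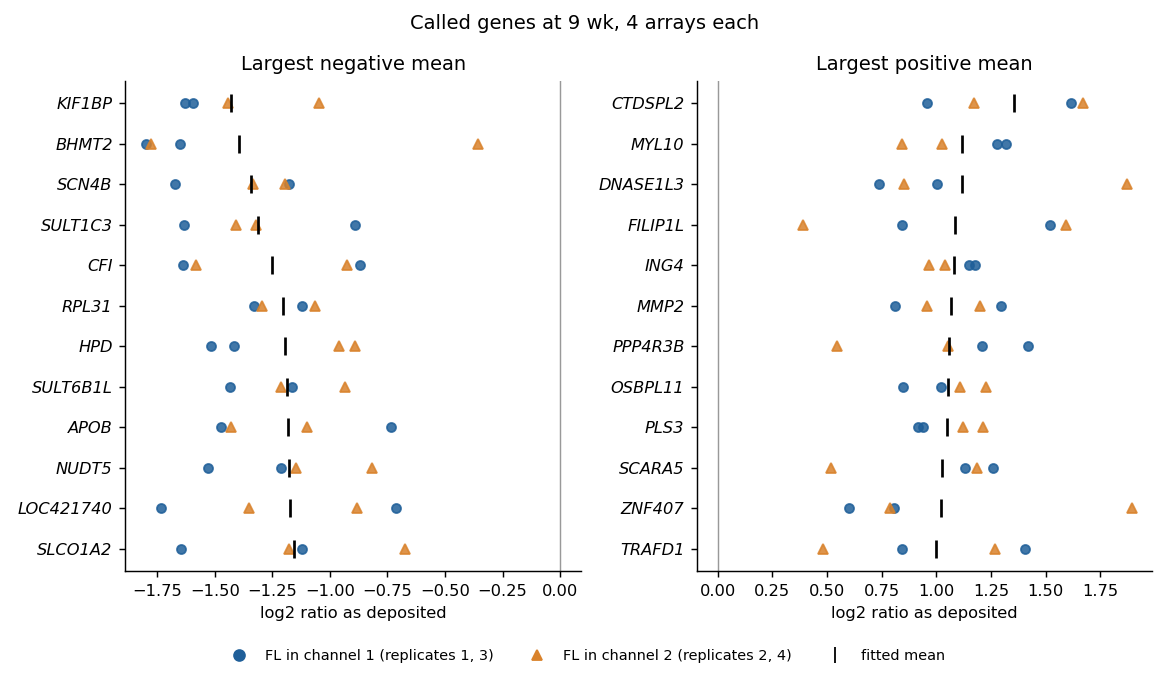
Log2 ratio as deposited (horizontal axis) on each 9 wk array for the 12 called genes with the largest negative mean (left) and the largest positive mean (right) among those chosen to have 1 sign on all 4 arrays. Circles have FL in channel 1, triangles have FL in channel 2, and the black bar is the fitted mean. BHMT2 on replicate 2 (-0.36) and ZNF407 on replicate 2 (1.89) stand apart from the other arrays.

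Genes of lipid synthesis were called in part in the deposited columns. Of 19 genes of fatty acid synthesis and its control, 1 was called positive and 5 negative, a share of 31.6% beside 16.2% of all features. Their median was -0.06 beside 0.01 for all features. ACACA had -0.93, -1.16, -0.88 and -0.48 and a mean of -0.86 ± 0.19 (adjusted p = 0.00306). ELOVL2, which elongates polyunsaturated fatty acids, had -0.79 ± 0.17 and FADS1, the delta-5 desaturase, -0.44 ± 0.10, which was not called from the 4 arrays alone (adjusted p = 0.0704). All 3 genes were below 0 on every array. THRSP had -0.67, -0.91, -0.44 and -0.11 and a mean of -0.53 ± 0.18 (adjusted p = 0.0458). It was not called without replicate 1, 2 or 3 (-0.49, -0.41 and -0.56, adjusted p = 0.154, 0.242 and 0.0997). Without replicate 4 the value was -0.67 and the call was kept. FASN ran from -1.27 on replicate 1 to 0.12 on replicate 4 and was not called (-0.59 ± 0.24, adjusted p = 0.103), and its 2 probes differed in size, at -1.06 and -0.12. GPAM was between -1.60 and -1.06 on replicates 1 to 3 and at 0.93 on replicate 4 (-0.71 ± 0.32, adjusted p = 0.159). Without replicate 4 both were called, with -0.83 for FASN (adjusted p = 0.0441) and -1.25 for GPAM (adjusted p = 0.0081), and FASN was also called without the 3 arrays of other ages (adjusted p = 0.0313). SCD (0.05), ACLY (-0.03), PPARG (-0.08) and FABP1 (0.23) were not called either. Of 14 genes of triglyceride assembly only ACSL1, a long-chain acyl-CoA synthetase, was called, with -0.62, -0.64, -0.55 and -1.41 and a mean of -0.81 ± 0.15 (adjusted p = 0.000974). This count of 1 was 3 without replicate 4, 4 from the 4 arrays alone, with array weights or with arrays centred, and 5 without the 3 arrays of other ages. As shares, the counts of 1, 3, 4 and 5 were 7.14%, 21.43%, 28.57% and 35.71%. Over all features the shares in these settings were 16.2%, 11.58%, 11.82% to 20.13% and 22.54%.

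Oxidation, cholesterol and lipoprotein genes were called in both directions. The called shares were 40.9%, 25% and 43.75%, beside 16.2% of all features. Of 22 genes of fatty acid oxidation 3 were positive and 6 negative (median -0.09), among them ACAA2, the mitochondrial thiolase (-0.59 ± 0.13), SLC25A20, the carnitine carrier (-0.47 ± 0.11), and HADHA, the alpha subunit of the trifunctional protein (0.38 ± 0.06). Without replicate 3 or 4 the count fell from 9 to 5 and 4, shares of 22.73% and 18.18% beside 10.68% and 11.58% of all features. SLC25A20 was not called without either array (-0.41 and -0.34, adjusted p = 0.0527 and 0.0823), nor from the 4 arrays alone (0.104). Of 16 cholesterol genes 2 were positive and 2 negative, and 2 were called without replicate 1, 3 or 4, with 0 negative without replicate 3. That share of 12.5% lay near the 12.7%, 10.7% and 11.6% of all features called without replicates 1, 3 and 4. SOAT1, which esterifies cholesterol, had 0.22, 0.32, 0.20 and 0.33, so that the arrays differed little, and a mean of 0.27 ± 0.04. MSMO1, a sterol oxidase of cholesterol synthesis, had -0.71 ± 0.20 and was not called without replicate 3 (-0.59, adjusted p = 0.119). Of 16 lipoprotein genes 3 were positive and 4 negative, and 4 were called without replicate 3 (25%, beside 10.68% of all features). APOH, a plasma glycoprotein that binds phospholipid, had -0.97 ± 0.20, LCAT, which esterifies cholesterol on high density lipoprotein, -0.55 ± 0.11, and ABCA1, the lipid exporter that starts high density lipoprotein, 0.55 ± 0.13. ABCA1 was not called without replicate 4 (0.47, adjusted p = 0.0533). APOA1, the main protein of high density lipoprotein, had a mean of -0.59 over probes that disagreed in sign (-1.69 and 0.51), so its direction depends on the probe, and it was not called without replicate 3 (-0.55, adjusted p = 0.0543). Of 6 bile acid genes 2 were negative, a share of 33.3% beside 16.2% of all features. They were ABCC2, a canalicular export pump (-0.52 ± 0.09), and CYP27A1, the sterol 27-hydroxylase (-0.34 ± 0.12), which was not called without any 1 of the 4 arrays (-0.38 to -0.32, adjusted p from 0.0842 to 0.163). The count was 1 without each array in turn (16.67%, beside 10.68% to 12.74% of all features).

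Amino acid metabolism was mostly negative. Of 36 genes of amino acid, creatine and urate metabolism 1 was positive and 12 negative (36.1%, beside 16.2% of all features), and the median was -0.27. Enzymes of serine synthesis were among them. PHGDH, its first enzyme, had -0.83, -0.81, -0.91 and -0.93 on the 4 arrays, which barely differed, and a mean of -0.87 ± 0.12. PSAT1, the next enzyme, ranged from -1.87 on replicate 1 to -0.34 on replicate 2, with a mean of -1.08 ± 0.23 (adjusted p = 0.00244). KMO, of the kynurenine pathway, had -0.76, -0.83, -0.83 and -1.34, with a mean of -0.94 ± 0.10 (adjusted p = 4.96e-06). FAH and HGD, which with HPD break down tyrosine, had -0.92 ± 0.15 and -0.77 ± 0.23, the latter with no call without replicate 1 (-0.55, adjusted p = 0.178) or 4 (-0.78, 0.0636). ATIC, which closes the purine ring on the way to urate, had a mean of -1.06 ± 0.26, and replicate 2 was at -0.07 while the others were between -1.74 and -1.06. Without replicate 1 ATIC was not called (-0.83, adjusted p = 0.0608). The count of 13 called genes fell to 8 without replicate 1 and to 7 without replicate 4. These shares of 22.22% and 19.44% stood beside 12.74% and 11.58% of all features.

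Genes of glucose metabolism were called in both directions, 3 of 30 positive and 3 negative (median -0.01), a share of 20.0% that lay near the 16.2% of all features. PCK1 was positive on all arrays, with 0.03, 0.60, 1.52 and 1.85 and a mean of 1.00 ± 0.21 (adjusted p = 0.00175), and it was not called from the 4 arrays alone (adjusted p = 0.0893). Replicate 1 lay near 0 and replicates 3 and 4, of opposite orientation, were highest. FBP1, the fructose bisphosphatase of gluconeogenesis, had the opposite sign, with -0.48, -0.44, -1.0 and -1.38 and a mean of -0.83 ± 0.18. ENO1, the glycolytic enolase, had -0.84 ± 0.22 and was not called without replicate 1 (-0.74, adjusted p = 0.0614), and PDK1, a kinase that restrains pyruvate dehydrogenase, had 0.49 ± 0.10. GYS2 had -0.15 ± 0.09 and was not called (adjusted p = 0.354).

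Plasma proteins were predominantly negative, with exceptions. Of 21 coagulation genes 4 were positive and 8 negative (median -0.29), of 15 complement genes 1 was positive and 4 negative (-0.34), and of 19 plasma carriers and acute phase proteins 1 was positive and 7 negative (-0.32). The called shares were 57.1%, 33.3% and 42.1%, beside 16.2% of all features. The vitamin K-dependent proteases F2, F7, F9, F10 and PROC were all negative, at -0.45, -0.57, -0.91, -0.74 and -0.86, and without replicate 4 F7 was not called (-0.46, adjusted p = 0.0876). VTN, or vitronectin, which binds matrix and clotting regulators, had -0.87, -0.73, -1.12 and -1.37, with a mean of -1.02 ± 0.17. KNG1, or kininogen, the precursor of bradykinin, went the other way on all arrays, with 0.71, 1.24, 0.85 and 0.94 and a mean of 0.93 ± 0.10 (adjusted p = 5.63e-06). RBP4, which carries retinol, was positive as well, with 0.45, 0.56, 0.60 and 0.92 and a mean of 0.63 ± 0.11, whereas TTR, its partner protein in plasma and a thyroid hormone carrier, had -0.71 ± 0.19. The 3 probes of TTR gave -1.03, -1.11 and 0.01, and TTR was not called without replicate 1 (-0.60, adjusted p = 0.0727) or 3 (-0.62, 0.0736). FETUB, a fetuin that inhibits proteases, had -1.12 ± 0.24 and MBL2, a lectin that starts complement, -0.75 ± 0.13. Without replicate 2, 3 or 4 only 3 complement genes were called, a share of 20% beside 11.55%, 10.68% and 11.58% of all features. Without replicate 4 there were 5 plasma carriers (26.32%, beside 11.58% of all features), 2 positive and 3 negative. The lean of this list to negative calls was thus weaker without that array.

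Of 32 genes of xenobiotic and aldehyde metabolism 1 was positive and 9 negative (median -0.22), a share of 31.25% beside 16.2% of all features. GSTA2, a glutathione transferase, had -1.48, -0.86, -0.72 and -0.99, with a mean of -1.01 ± 0.15 (adjusted p = 0.000106), and CYP2AC1, a cytochrome P450, -1.09 ± 0.24. ADH6, an alcohol dehydrogenase, ran from -2.61 on replicate 1 to 0.31 on replicate 3 (-1.18 ± 0.36, adjusted p = 0.0297) and was not called without replicate 1, 2 or 4 (adjusted p = 0.274, 0.127 and 0.0572, with values of -0.70, -1.06 and -1.28). The count of 10 fell to 5, 4 and 6 without replicates 1, 2 and 4. These shares of 15.62%, 12.5% and 18.75% stood beside 12.74%, 11.55% and 11.58% of all features.

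The genes of the translation machinery had the largest called share of any list with 10 or more members other than coagulation. Of 46 cytosolic ribosomal proteins 24 were negative and 0 positive, with a median of -0.35 and array medians of -0.25, -0.31, -0.36 and -0.37. The called share was 52.17%, beside 16.2% of all features. Between 19 and 24 were called when each array was left out (41.3% to 52.17%, beside 10.68% to 12.74% of all features). RPS23 and RPS24, of the small subunit, had means of -1.13 ± 0.16 and -1.01 ± 0.16. RPS15A had no value on replicate 1, which its fit left out, and -0.77, -1.15 and -1.24 on the others, with a mean of -1.05 ± 0.11 (n = 3). EIF3M, a subunit of initiation factor 3, had -1.01, -1.09, -1.10 and -0.81, with a mean of -1.0 ± 0.09 (adjusted p = 4.80e-07). Mitochondrial ribosomal proteins were less one-sided, with 2 of 37 positive and 6 negative (median 0.01), a share of 21.6% beside 16.2% of all features. Among them were MRPS9 at -0.92 ± 0.14 and MRPL14 at 0.49 ± 0.10. Without replicate 4 the count was 4, a share of 10.81% beside 11.58% of all features. After turning, the median of the cytosolic proteins was -0.02 and 0 were called.

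Of 43 genes of the respiratory chain and ATP synthase 1 was positive and 9 negative (median -0.12), a share of 23.3% beside 16.2% of all features. ATP5H, a stalk subunit of ATP synthase, had -0.64, -1.09, -0.78 and -1.06, with a mean of -0.89 ± 0.14, and UQCRFS1, the Rieske protein of complex III, had -1.0, -0.52, -1.04 and -0.30, with a mean of -0.72 ± 0.10. UQCRFS1 was lower on replicates 1 and 3 than on 2 and 4, and its turned value was 0.30 ± 0.11 (unadjusted p = 0.012). ATP5B, the catalytic subunit, had 4 values between -0.90 and -0.76 (-0.82 ± 0.26, adjusted p = 0.0323) but was not called without any 1 of them (adjusted p from 0.0813 to 0.107, values of -0.84 to -0.79), and its SE rests on the spread at all 6 ages. Of 33 proteasome genes 1 was positive and 5 negative, a share of 18.2% beside 16.2% of all features, and of 36 chaperones and proteins of the unfolded protein response 3 were positive and 8 negative. CCT8, a chaperonin subunit, had -1.22, -1.23, -0.92 and -1.07 (mean -1.11 ± 0.13), and ERN1, the stress sensor IRE1, had -1.04 ± 0.18. The chaperone share was 30.56%, beside 16.2% of all features. Without replicate 1 the chaperone count was 7, a share of 19.44% beside 12.74% of all features.

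**Figure D4:**
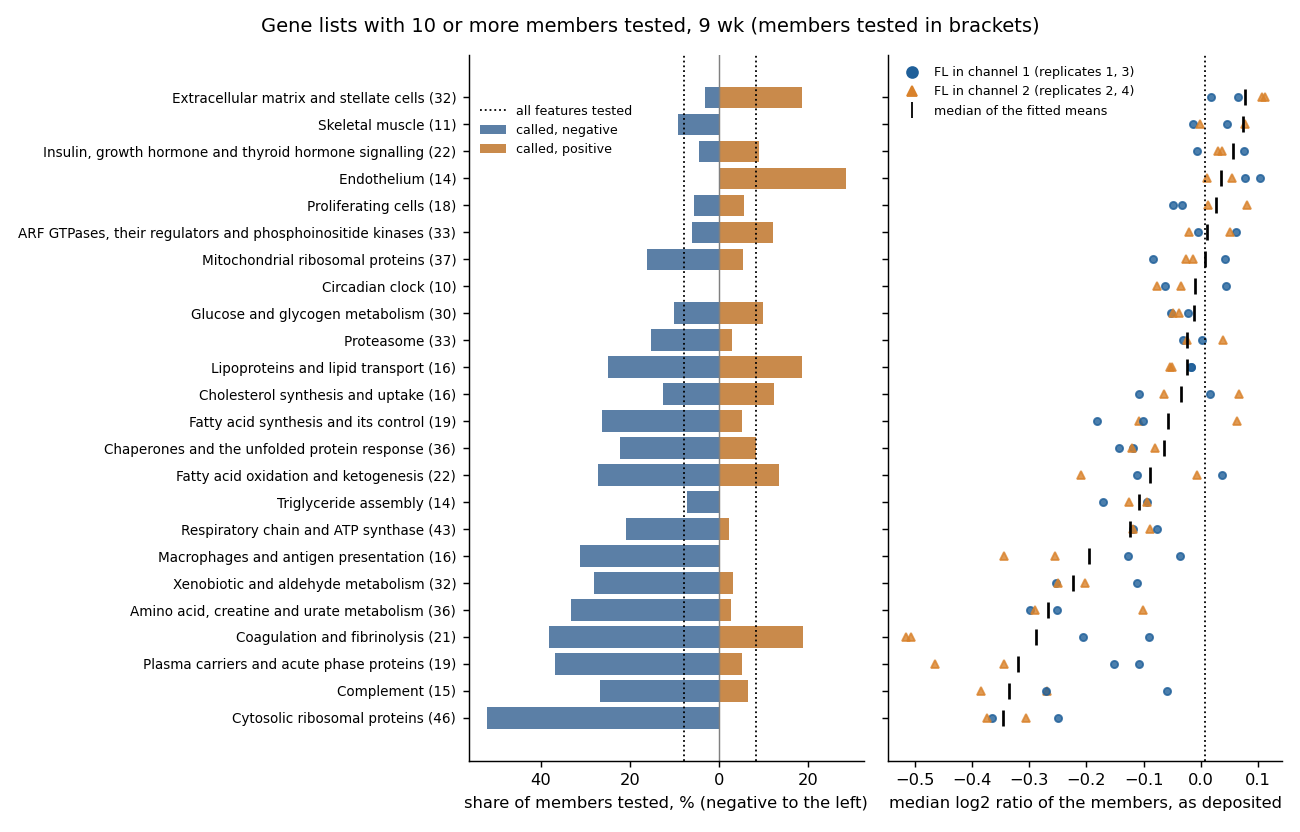
Left, share of the tested members of each list called at 9 wk as deposited, in percent, negative to the left and positive to the right, with dotted lines at the shares of all features (7.92% and 8.29%). Right, median log2 ratio of the members on each array (circles, FL in channel 1, and triangles, FL in channel 2) and of the fitted means (black bars), with a dotted line at the median of all features. Cytosolic ribosomal proteins are lowest in median (-0.35) and extracellular matrix genes highest (0.08).

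Markers of other cell types were called in both directions as deposited, where 16.2% of all features were called (8.29% positive and 7.92% negative). The called shares were 21.9% for extracellular matrix and stellate cells, 28.6% for endothelium and 31.25% for macrophages and antigen presentation. Of 32 genes of the extracellular matrix and stellate cells 6 were positive and 1 negative (median 0.08). LAMB1, a laminin chain of basement membranes, had 0.74, 0.82, 0.99 and 1.38, with a mean of 0.98 ± 0.12 (adjusted p = 1.44e-05), FBN1, which forms microfibrils, 0.40 ± 0.09, and FBLN1, a fibulin, 0.41 ± 0.06. COL1A2, a chain of type I collagen, was the negative one (-0.36 ± 0.10, with no call without replicate 1 or 2, adjusted p = 0.152 and 0.094, values of -0.25 and -0.31), while COL1A1, the other chain, had 0.30 and was not called. LAMC1 had a mean of 0.47 that rested on 1 of 3 probes (1.56, -0.07 and -0.08). Of 14 endothelial genes 4 were positive and 0 negative, and 1, 2 and 1 were called without replicates 1, 2 and 3. These shares of 7.14%, 14.29% and 7.14% stood beside 12.74%, 11.55% and 10.68% of all features. LYVE1, a hyaluronan receptor of sinusoidal and lymphatic endothelium, had 0.51 ± 0.10 and was called in each case, whereas PECAM1 (0.46 ± 0.15) was not called without any 1 array (adjusted p from 0.0714 to 0.22, values of 0.35 to 0.51). Of 16 macrophage and antigen presentation genes 5 were negative and 0 positive (median -0.20), among them CYBB, the catalytic subunit of the phagocyte oxidase (-0.83 ± 0.17), and CTSB, a lysosomal protease (-0.52 ± 0.11), and 3 were called without replicate 2 or 4 or from the 4 arrays alone, where CTSB was not (adjusted p = 0.0693). The share of 3 genes was 18.75%, beside 11.55%, 11.58% and 11.82% of all features in these settings. C1QC, a chain of complement C1q made by macrophages, had -0.57 ± 0.16 (adjusted p = 0.0184) and was not called without replicate 2, 3 or 4 (-0.58, -0.59 and -0.51, adjusted p = 0.0565, 0.0564 and 0.0933). B2M had -0.63 ± 0.17 (adjusted p = 0.0145) and was not called without replicate 2 or 4 (-0.51 and -0.46, adjusted p = 0.108 and 0.131). CSF1R (0.06), MARCO (-0.36) and CD74 (-0.41), of the same list, were not called. Called genes numbered 0 of 6 for erythrocytes, 0 of 5 for pancreas and 0 of 2 for lymphocytes, 1 of 3 for bile duct, 1 of 8 for adipocytes, 1 of 11 for skeletal muscle and 2 of 18 for proliferating cells. The shares of adipocytes, skeletal muscle and proliferating cells (12.5%, 9.09% and 11.1%) lay below the 16.2% of all features. The part of these cell types in the hepatocyte values was not tested.

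Among regulators, of 33 ARF GTPases, their regulators and phosphoinositide kinases, the list that holds ADAP1, 4 were positive and 2 negative as deposited (18.2%, beside 16.2% of all features). Without replicate 4 there were 2, a share of 6.06% beside 11.58% of all features. INPP5A, an inositol phosphate phosphatase, had 0.58 ± 0.11 and ARF1, the GTPase of the Golgi coat, -0.54 ± 0.11. Of 22 genes of insulin, growth hormone and thyroid hormone signalling 2 were positive and 1 negative, a share of 13.6%, below that of all features. The negative one was IGFALS, which stabilises insulin-like growth factors in plasma, with -0.93, -0.87, -0.13 and 0.02, a mean of -0.48 ± 0.16 (adjusted p = 0.0456) and no call without replicate 1 (-0.33, 0.282) or 2 (-0.34, 0.269). Without replicates 1 and 2 in turn, 1 and 0 of this list were called, shares of 4.545% and 0% beside 12.74% and 11.55% of all features. Of 10 clock genes 0 were called. Of 8 genes of the glucocorticoid response 2 were negative, a share of 25% beside 16.2% of all features. Without replicate 4 there were 0, beside 11.58% of all features. Without replicate 2 or from the 4 arrays alone there was 1 (12.5%, beside 11.55% and 11.82%). FKBP5, a co-chaperone of the receptor (-0.38 ± 0.10), was not called without replicate 2 (-0.37, adjusted p = 0.0579) or 4 (-0.27, 0.132).

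The third comparison asked which values at 9 wk departed from the other 5 ages. As deposited, 338 features (2.28%) differed from the mean of the other ages, 103 positive (0.693%) and 235 negative (1.58%), and 323 of them were also called at 9 wk itself. For 331 of the 338 the ratio was larger in size at 9 wk than the mean of the others, and for 86 it had the opposite sign. Over all features the SD was 0.252 for the 9 wk mean and 0.139 for the mean of the other ages. A call on their difference also favours features that are large at 9 wk, and the same counts over all features were not made. With each array centred on its median, 568 were called, 293 of them positive, so the split between directions depended on the centring. Without 7 wk replicate 1, 11 wk replicate 4 and 1 wk replicate 4, 883 were called, 429 of them positive. Without 9 wk replicates 2, 3 and 4 in turn the count was 161, 178 and 194. After turning, 2 features (0.0135%) differed, ADAP1 and 1 unnamed probe, and 560 (3.77%) had an unadjusted p under 0.05.

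By number, the lists with the most calls in this comparison were the cytosolic ribosomal proteins (5 of 46) and amino acid metabolism (5 of 36), all of them negative. Over all features 2.28% were called, 1.58% negative. The smaller lists of coagulation (3 of 21, with 1 positive and 2 negative) and bile acids (1 of 6) had larger shares than either. EIF3M had a mean of -1.0 at 9 wk against -0.16 over the other ages, a difference of -0.84 (adjusted p = 4.74e-05). RPL31 had -1.20 against -0.28 (-0.93, adjusted p = 0.000756). C3H1ORF115 had 4 ratios between -0.77 and -0.56 at 9 wk and a difference of -0.57, ATP5G1, a subunit of the ATP synthase rotor ring, one of -0.42, and M6PR, a receptor that sorts lysosomal enzymes, one of -0.53 (-0.32 at 9 wk against 0.21). These 5 genes were called without each 9 wk array in turn. The 9 wk mean of ATP5G1 rested mostly on 1 of 3 probes (-0.98, -0.12 and -0.25). PSAT1 had -1.08 against -0.01 (adjusted p = 0.0285) and BHMT2 -1.40 against -0.25 (adjusted p = 0.0279). PSAT1 was not called without replicate 1, 3 or 4 (-0.80, -1.15 and -1.0, adjusted p = 0.146, 0.0559 and 0.101), nor was BHMT2 (-1.01, -1.06 and -1.02, adjusted p = 0.106, 0.107 and 0.115). Positive differences were found for KNG1 (0.93 against 0.40), RBP4 (0.63 against 0.16) and OSBPL11 (1.05 against 0.53). KNG1 was not called without replicate 2 (0.43, adjusted p = 0.0959), RBP4 not without 2, 3 or 4 (0.38 to 0.50, adjusted p from 0.0876 to 0.177), and OSBPL11 not without any 1 array (0.46 to 0.59, adjusted p from 0.0533 to 0.169). Against 11 wk alone, 0 features were called as deposited (732, or 4.93%, at an unadjusted p under 0.05) and 0 after turning (477, or 3.21%, unadjusted). Against 7 wk alone, 647 (4.36%) were called as deposited, 620 of them negative (4.17% of all features), in a comparison that holds the uncentred 7 wk replicate 1, and 0 after turning (1788 unadjusted).

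**Figure D5:**
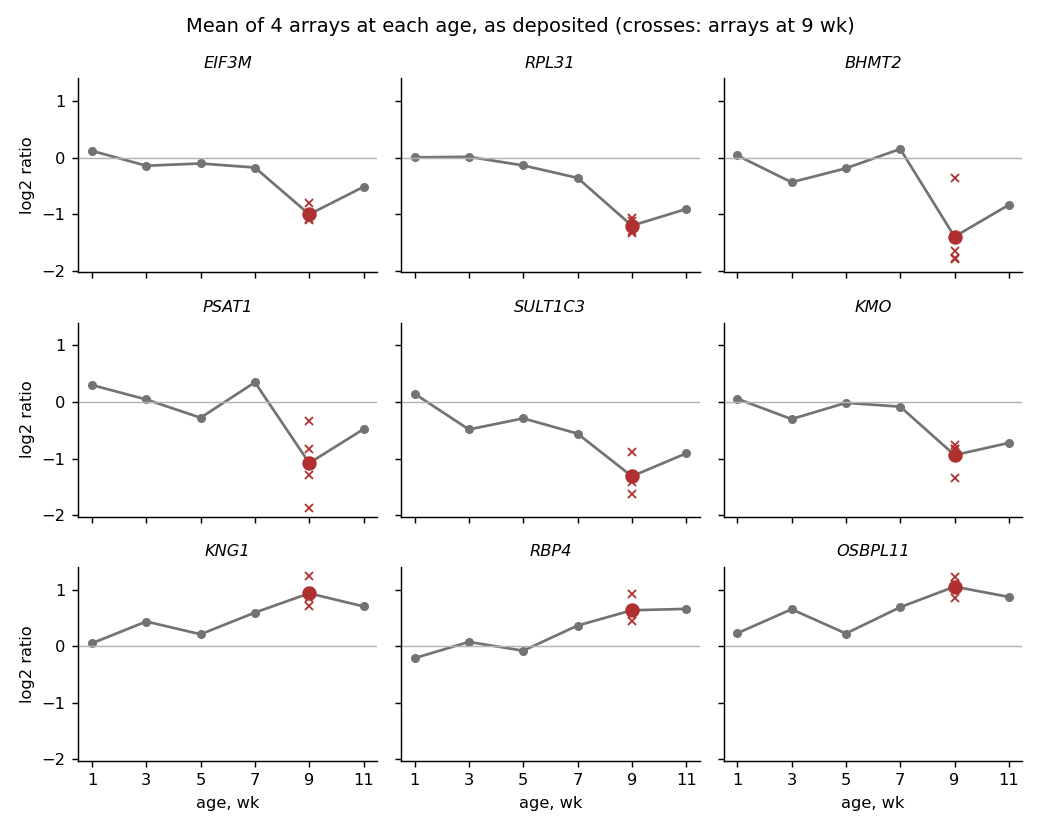
Mean log2 ratio as deposited of the 4 arrays at each age (vertical axis) against age in wk for 9 genes called in the comparison of 9 wk with the other ages. The large point is 9 wk and crosses are its arrays. EIF3M, RPL31, BHMT2, PSAT1, SULT1C3 and KMO are lowest at 9 wk, and in each of the 9 genes the mean at 11 wk lies nearest to that of 9 wk.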

How the data were processed

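Total RNA of 4 FL and 4 LL livers of 9 wk was hybridised on 4 two-colour cDNA arrays, within a series of 24 arrays. The deposited table held log2 ratios (the log base is taken as log2) for 19200 spots in 48 blocks per array, normalized by the authors by a method that is not given in the sources used here, and no counts or levels. Block medians at 9 wk lay between -0.0535 and 0.0300. The values were used as deposited, with no further normalization. The probe annotation gave 1 symbol for 10601 probes and none for 8599, and the Entrez identifiers of 10455 probes were found in RefSeq, with 0 symbols updated. Probes of a gene were averaged, and features were kept where no age lacked values on more than 1 of its 4 arrays, that is, with 3 or more per age.

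Features were tested in limma (version 3.58.1, R 4.3.3) over all 24 arrays, with a coefficient for each age, with or without the sign of the dye orientation and, when turned, 1 term common to all arrays. P-values were two-sided and were adjusted by the method of Benjamini and Hochberg across the 14855 features, with a call at an adjusted p under 0.05. The standard errors are those of the moderated fit. The fits were tested on simulated data with known differences. The number of arrays limits the precision, and each array held a different pair of birds. No other test was made on lists, which are given by counts and medians.

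The genes named were, for each reading, the 12 positive and 12 negative calls of largest size whose sign was shared by all 4 arrays, the 12 smallest p where under 10 features were called, up to 4 called members of each of 31 lists (where no member was called, that of lowest p), the 5 smallest p against the other ages, and 11 genes of lipid and glucose metabolism given in any case. STUB1 and DIO1, on more than 20 probes each, were left out. ALB, HADHA, ABCA1, PHGDH, FAH, HGD, F2, F7, F10, PROC, FGB, FBLN1, COL1A2, COL1A1, CSF1R, MARCO and CD74 were named after their values were seen. The members and lists were chosen with earlier results of these data known. Alternatives were the 4 arrays alone, array weights, centring, scaling, missing-value filters, single probes, leaving out each replicate, the replicate number as a block, leaving out 3 arrays of other ages, the sign of 1 of them, a robust prior and a dye term for each age.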

Additional observations from a re-analysis of the deposited data

Results flagged for a closer look

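Of 188 sets of 4 array values at 9 wk, 15 had 1 array far from the other 3, where chance flags about 1 in 20 sets, and 8 of the 15 were on replicate 4. On replicate 4 the deposited ratio stood apart for ACSL1 (-1.41), KMO (-1.34), ARF1 (-0.35), PSMA7 (0.556), SCD (0.354) and VWF, the von Willebrand factor (-0.0213), and the turned ratio for ECI1, an isomerase of fatty acid oxidation (-0.137), and RRAGA (-0.0827). On replicate 1 it stood apart for ACAT2, which makes acetoacetyl-CoA (-0.576), CEL, a bile salt lipase (0.022), and PECAM1 (0.793), on replicate 2 for BHMT2 (-0.356), MRPS9 (-0.178) and ZNF407 (1.89), and on replicate 3 for MSMO1 (-1.09).

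For 27 named genes the ratio at 9 wk differed from the mean of the other ages by the limma test of that difference. Over all features 2.28% were called in this comparison as deposited. The named genes were chosen in part by their size at 9 wk, by their p in this same comparison or after their values were seen. Their number is therefore no support for a difference at 9 wk. As deposited the difference was -0.371 for ABCC2, -0.419 for ATP5G1, -0.652 for ATP5H, -1.14 for BHMT2, -0.569 for C3H1ORF115, -0.628 for CCT8 and -0.838 for EIF3M. It was -0.414 for F2, -0.647 for FAH, -0.725 for KMO, -0.525 for M6PR, -0.537 for PHGDH, -0.634 for PROC and -1.07 for PSAT1. The proteasome genes PSMB7 and PSMC2 had -0.373 and -0.343, the ribosomal protein genes RPL31, RPS15A and RPS24 -0.926, -0.576 and -0.694, and SCN4B and SULT1C3 -0.735 and -0.893. SULT1C3 was not called without replicate 1 or 2 (-0.79 and -0.86, adjusted p = 0.066 for both). Positive differences were 0.348 for FBLN1, 0.33 for HADHA, 0.535 for KNG1, 0.519 for OSBPL11 and 0.473 for RBP4. In the turned reading the difference of ADAP1 was -0.538. Against 11 wk alone, the age whose deposited mean correlated most with that of 9 wk (0.815), 0 features were called in either reading.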

How the results depend on the processing

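With the columns turned, 1 feature was called at 9 wk, and 0 with array weights, with the replicate number as a block or from the 4 arrays alone, and 0 to 2 without each replicate, none of them ADAP1. As deposited the count of 2407 was 1756 from the 4 arrays alone, 3348 without the 3 arrays of other ages and 1586 to 1892 without each replicate. Against the other ages the turned count of 2 was 1 with a dye term for each age or without those 3 arrays, 0 with the block, and 0 to 1 without each replicate. The deposited count of 338 was 568 with arrays centred, 883 without those 3 arrays, 281 with the block and 161 to 279 without each replicate.

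Of 24 arrays, 2 correlated best with their own replicate number, which cannot show whether arrays of the same number were processed together. The replicate number as a block gave 2321 calls as deposited at 9 wk. With it ADAP1 had an adjusted p of 0.0978. No named gene changed sign except without a replicate, when turned values ranged from -0.16 to 0.36 for ACACA, -0.40 to 0.16 for APOB, -0.24 to 0.67 for FABP1, -0.0176 to 0.55 for FASN, -0.21 to 0.70 for PCK1, -0.0774 to 0.0194 for PPARG, -0.088 to 0.24 for THRSP and -0.40 to 0.0525 for MARCO, and deposited values from -0.12 to 0.0488 for ACLY, -0.18 to 0.68 for FABP1, -0.25 to 0.0038 for GYS2, -0.0461 to 0.10 for SCD, -0.028 to 0.14 for CSF1R and -0.31 to 0.24 for FGB. The 137 genes named as deposited include some that were not called and so had no call to lose. Of the called ones, 40 lost their call without at least 1 replicate, 22 from the 4 arrays alone, 5 with array weights and 4 with the block. The cause of these differences was not tested. With 4 arrays a turned value had a median SE of 0.08.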

Other observations

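After turning, 24 of 621 listed genes (3.86%, beside 3.25% of all features) had an unadjusted p under 0.05, 15 positive and 9 negative. Only ADAP1 of these was called, and some of the others are given here as values (adjusted p of 1.00 with limma for each gene of this paragraph). ASNS, which makes asparagine, had deposited ratios of -0.09, 0.28, -0.69 and 0.02 and a turned value of 0.27 ± 0.10 (unadjusted p = 0.0168), so it was higher where FL was in channel 2. SMC2, a condensin subunit, had -0.10, 0.25, 0.02 and 0.62 (0.24 ± 0.08, unadjusted p = 0.00948), and THRB, a thyroid hormone receptor, -0.19, 0.15, -0.03 and 0.40 (0.19 ± 0.08, unadjusted p = 0.0268, over 2 probes that differed in sign). SGK1, a kinase induced by glucocorticoids, had 0.16 ± 0.07 (unadjusted p = 0.0277), over 5 probes that differed in sign. In the opposite direction, RPS3, a small subunit protein, had -0.27 ± 0.12 (unadjusted p = 0.0369) and ERG, an endothelial transcription factor, -0.17 ± 0.08 (unadjusted p = 0.0428). For RPS3, replicate 3 went against the other arrays, with deposited probe values of -0.68 and -0.27 that turn positive. Its turned value ranged from -0.45 to -0.13 without each replicate. For ERG, replicate 2 went against the others after turning (0.09). FDPS, which makes farnesyl diphosphate for cholesterol synthesis, had 0.31 ± 0.14 (unadjusted p = 0.045), and its deposited ratio of -0.79 on replicate 3 lay well below the other arrays, which were between 0.06 and 0.38.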
